A study of Mus musculus with 8 samples.

Results

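The 10 genes described here are 9 members of the PARP family (Parp1, Parp2, Parp3, Parp8, Parp9, Parp10, Parp11, Parp12 and Parp14) and Dtx3l, the ubiquitin ligase that partners Parp9. They were taken by name: every non-control probe whose gene name in the scanner files was one of these symbols was used, which gave 23 of 56599 probes and 10 of the 22510 genes tested. Messenger RNA was measured in CD11b(+) cells, which carry an integrin of microglia and other myeloid cells, isolated with magnetic beads from brains of male C57BL/6N mice, 7 days old by the labels. The mice had received saline (4 tubes) or lipopolysaccharide (LPS, an outer-membrane component of Gram-negative bacteria; 4 tubes) 24 h before. Each tube pooled the brains of 2 mice with the same treatment and was read on 1 array with 1 colour (Cy3), so a tube is the replicate and single mice cannot be seen. The design text sets the LPS tubes against the saline tubes, and no other genotype, dose or time enters the comparison here.

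ADP-ribosyltransferases of the PARP family take NAD and attach its ADP-ribose to proteins or nucleic acids. Some build long chains of it at DNA breaks, others add single units, and Parp9 and Parp14 also carry macrodomains that bind ADP-ribose. Several of the genes that add single units are classical interferon-stimulated genes in macrophages, while the DNA-dependent enzymes are best known from DNA repair.

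After LPS, 9 of the 10 genes rose and 1, Parp11, did not pass the test. The largest increases were those of Parp9 (2.21-fold) and Parp12 (2.20-fold), followed by Parp14 (1.93-fold), Dtx3l (1.93-fold) and Parp10 (1.72-fold). Parp1, Parp2, Parp3 and Parp8 rose by 1.28-fold to 1.60-fold. The count has to be read against a broad change: with limma and Benjamini-Hochberg adjustment at 0.05 over all genes, 49.3% of genes were called, 27.8% as higher and 21.5% as lower. The groups of arrays did not overlap, with every LPS array above every saline array, for 9 of the 10 genes, which was so for 25.8% of all genes tested (44.7% did not overlap in one direction or the other). The median change of the 10 genes was 0.73 on the log2 scale, beside 0.02 over all genes.

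Each level below is log2 of the processed signal minus the 75th percentile of its array, so 0 is the level of that percentile, and levels of different probes are not compared. Changes are LPS minus saline ± standard error from limma, with n = 4 arrays per group, and spreads of groups are SD. Scaling each array to another percentile shifts the change of every gene alike. Scaled to the median of each array, all genes had a median change of 0.24 and the 10 genes one of 0.94. With the 75th percentile taken over probes well above background everywhere, these medians were -0.13 and 0.57. The higher share of the called genes was 56.4% as reported, 72.8% with the median, 40.1% with that other percentile and 50.4% with quantile normalization. Quantile normalization does not shift genes alike. With it Parp3 changed by 0.77, Parp14 by 0.72 and Parp10 by 0.48, where the values reported were 0.68, 0.95 and 0.78.

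On every array all 7 microglial markers, among them Itgam, which encodes CD11b itself, were well above background. Of the 7, 2 were called higher and 1 lower, beside 27.8% and 21.5% of all genes. Their summed level was 1380 to 1681 times the 75th percentile signal on saline arrays and 1498 to 1795 times on LPS arrays. Other cells were also seen. Summed monocyte markers (4 of 4 higher) were 11.9 to 15.8 after saline and 42.6 to 76.5 after LPS, neutrophil markers (3 of 6 higher) 65.1 to 153 and 166 to 294, and B cell markers (3 of 3 higher) 0.738 to 1.2 and 1.38 to 2.22. Macrophage markers of the brain borders (3 of 5 lower) were 391 to 511 after saline and 254 to 310 after LPS. Astrocyte markers (4 of 5 lower) were 20.2 to 25.7 and 11.2 to 15.7, and oligodendrocyte markers (5 of 6 lower) 9.14 to 9.36 and 5.6 to 6.79. Endothelial markers (3 of 4 lower) and neuronal markers (1 of 4 lower) had negative median changes as well, -0.55 and -0.87, while for T and NK cells Cd3g, Trac and Ncr1 did not pass the filter and 1 of the other 2 was lower. The part of these cells in the changes of the 10 genes was not tested. In such sorted but mixed samples, a change in the number of cells of a type and a change in RNA per cell cannot be told apart.

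Promoter sequences are shown for 4 of the genes: Dtx3l and Parp12, the strongest risers with an entry, Parp1 as a DNA-dependent enzyme, and Parp11 as the gene without a call. They are the 250 bases before the annotated start in RefSeq (GRCm38.p6), 5′ to 3′ on the strand of the gene, from a table that matched 7 of the 10 genes and held none for Parp9, Parp10 and Parp14. Capitals mark matches to 3 motifs searched on both strands: an interferon element (GAAA, any 2 bases, then GAAA again), a gamma-activated element (TTCNNNGAA) and a kappaB-like element (GGGA, any 4 bases, then CC). The windows lie at chr16:35939028-35939277 on the minus strand (Dtx3l), chr6:39118350-39118599 on the minus strand (Parp12), chr1:180568641-180568890 on the plus strand (Parp1) and chr6:127446590-127446839 on the plus strand (the first of 2 entries of Parp11).
Dtx3l: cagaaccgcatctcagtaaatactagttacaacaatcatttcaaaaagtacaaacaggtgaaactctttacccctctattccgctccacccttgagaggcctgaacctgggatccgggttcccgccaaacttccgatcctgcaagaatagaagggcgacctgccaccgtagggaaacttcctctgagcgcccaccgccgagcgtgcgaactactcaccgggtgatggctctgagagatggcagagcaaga
Parp12: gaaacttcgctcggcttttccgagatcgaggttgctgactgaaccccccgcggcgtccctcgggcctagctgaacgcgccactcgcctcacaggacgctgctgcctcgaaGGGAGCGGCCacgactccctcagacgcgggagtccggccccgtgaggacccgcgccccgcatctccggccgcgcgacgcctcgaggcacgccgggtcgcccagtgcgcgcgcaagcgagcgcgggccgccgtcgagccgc
Parp1: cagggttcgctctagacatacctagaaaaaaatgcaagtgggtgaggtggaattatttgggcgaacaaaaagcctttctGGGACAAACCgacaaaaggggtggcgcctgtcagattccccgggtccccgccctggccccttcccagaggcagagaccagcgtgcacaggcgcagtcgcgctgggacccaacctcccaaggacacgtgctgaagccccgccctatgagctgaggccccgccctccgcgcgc
Parp11: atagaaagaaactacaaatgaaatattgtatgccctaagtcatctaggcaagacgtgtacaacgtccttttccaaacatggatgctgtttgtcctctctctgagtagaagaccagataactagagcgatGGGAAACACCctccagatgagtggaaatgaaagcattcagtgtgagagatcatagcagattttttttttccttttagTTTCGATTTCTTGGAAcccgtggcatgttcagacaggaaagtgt

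The Dtx3l window held no match to any of the 3 motifs. Parp12 had 1 kappaB-like match, GGGAGCGGCC, at bases 140 to 131 before the start, and Parp1 had GGGACAAACC at bases 171 to 162. Parp11, the gene that was not called, was the only one of the 7 with an entry that held an interferon element, TTTCGATTTC on the reverse strand at bases 44 to 35. A gamma-activated match in Parp11, TTCTTGGAA at bases 37 to 29, overlaps it, and a kappaB-like match, GGGAAACACC, lies at bases 121 to 112. The windows of Parp2, Parp3 and Parp8 and the second entry of Parp11 held none. Among all 32851 promoter windows of this length, 2.98% held the interferon element, 7.02% the gamma-activated element and 17.6% the kappaB-like element. These matches describe letters in a window and are not binding sites.

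Parp9, Dtx3l and Parp14 lie side by side among the named protein-coding genes of chromosome 16. Parp9 is a macrodomain protein that works with the ubiquitin ligase Dtx3l, and Parp14 is a large macrodomain enzyme known as a coactivator of Stat6. Parp9 (probe at chr16:35972577-35972636 in mm9, plus strand) had levels of 2.14, 2.15, 1.88 and 2.11 on saline arrays 1 to 4 and 3.31, 3.36, 2.91 and 3.28 on LPS arrays 1 to 4. The lowest LPS array, number 3, was still above the highest saline array. The change was 1.14 ± 0.12, a 2.21-fold rise with adjusted p = 0.000549, larger than that of 97.6% of all genes. Dtx3l (chr16:35926655-35926714, minus strand) stood at 1.86, 1.97, 1.58 and 1.79 after saline and at 2.82, 2.83, 2.49 and 2.85 after LPS. Again LPS array 3 was the lowest of its group and the groups did not overlap. Dtx3l rose by 0.95 ± 0.12 (adjusted p = 0.000895).

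Parp14 (chr16:35832992-35833051, minus strand) had levels of 2.84, 3.11, 2.95 and 3.0 after saline and 3.95, 4.02, 3.68 and 4.06 after LPS. Its highest saline array lay below its lowest LPS array, and its rise was 0.95 ± 0.10 (adjusted p = 0.00066). Within an array the difference between 2 genes does not depend on a scaling that shifts all genes alike. For this reason 3 pairs were compared with a two-sided exact permutation test over the arrays. The smallest p that 4 against 4 allows in it is 0.0286. Parp9 minus Dtx3l was 0.28, 0.18, 0.30 and 0.32 on the saline arrays and 0.49, 0.53, 0.42 and 0.43 on the LPS arrays. The difference was 0.20 larger after LPS, without overlap of the groups, but over the 3 pairs the exact p of 0.0286 became 0.0857 after Benjamini-Hochberg adjustment. Without saline array 1 it was 0.20 larger with an adjusted exact p of 0.0429, and taking the mean of the probes of each gene turned it to -0.08. That mean takes in the dim other probes of Parp9, with saline means of -2.34, -3.73 and -3.99, where the brightest had 2.07. It also takes in the second probe of Dtx3l, at -2.29. Parp9 minus Parp14 was 0.19 larger after LPS with overlapping groups (exact p = 0.0857, adjusted 0.1286), 0.26 larger without saline array 1 (adjusted exact p = 0.0429) and -0.05 with the mean of probes. None of the 3 pairs passed the adjusted test on the values as reported. A single pair could not pass it alone, because even the smallest exact p of 0.0286 adjusts to 0.0857 over 3 pairs.

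**Figure D1:**
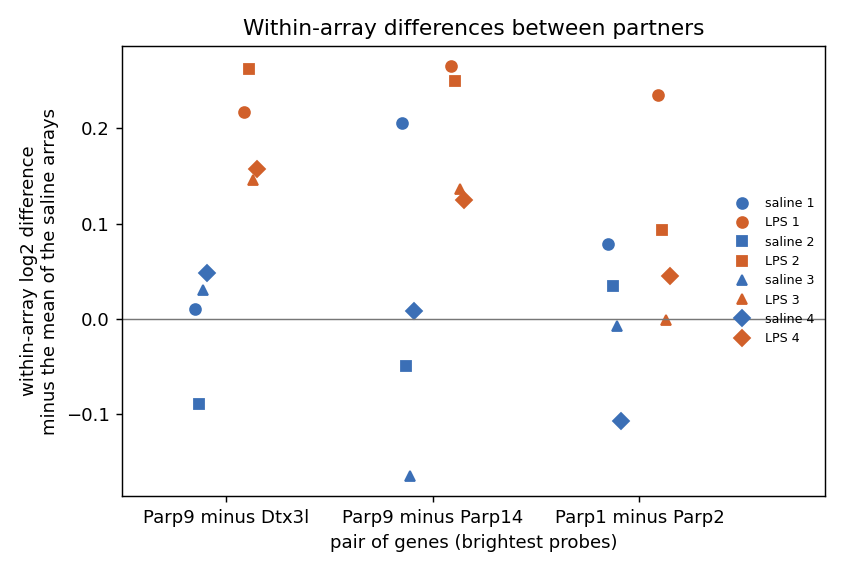
Within-array log2 differences of 3 pairs of genes, each drawn minus the mean of its 4 saline arrays; each point is 1 array, its colour the treatment and its shape the array number. For Parp9 minus Dtx3l all 4 LPS points lie above the 4 saline points, while the points of both other pairs overlap.

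The neighbours of these 3 genes on chromosome 16 did not all move with them. In RefSeq order the named protein-coding genes run Pdia5, Sema5b, Slc49a4, Hspbap1, Parp14, Dtx3l, Parp9, Kpna1, Wdr5b, Fam162a, Ccdc58, Csta1 and Stfa2l1. Noncoding genes and those with provisional symbols (Gm, LOC or Rik) were not considered. The annotated spans of Parp9 and Dtx3l overlap. Next to Parp14, Hspbap1 differed by 0.30 ± 0.11 (adjusted p = 0.0576, not called), and next to Parp9, Kpna1, a nuclear import receptor, rose by 0.27 ± 0.09 (adjusted p = 0.0404). Further out, Slc49a4, a membrane transporter of the solute carrier family, fell by 0.78 ± 0.08, although the mean of its probes gave -0.15 and no call. Pdia5, a protein disulphide isomerase, rose by 1.06 ± 0.14, and Stfa2l1, of the stefin family of protease inhibitors, rose by 1.44 ± 0.32. Of the 10 neighbours, 9 passed the filter (Csta1 did not), 5 were called higher and 1 lower, with a median change of 0.30. Over all genes 27.8% were higher and 21.5% lower. With the mean of each gene's probes 3 were higher and the median was -0.04, where 10731 of all genes were called in either direction.

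**Figure D2:**
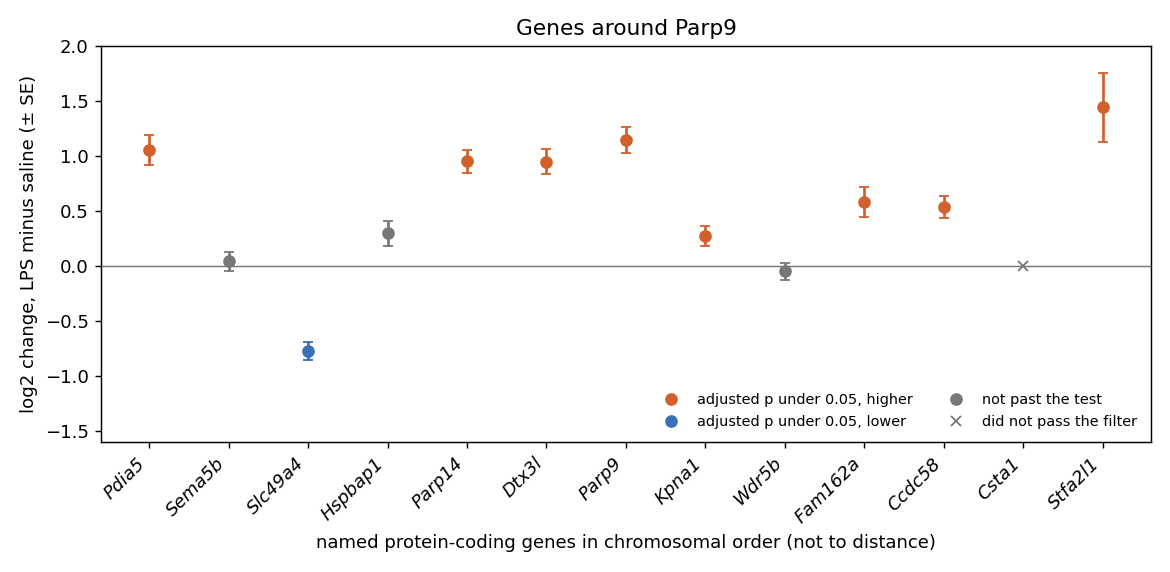
Change after LPS (log2, LPS minus saline, error bars ± standard error) of Parp14, Dtx3l, Parp9 and their neighbours (a cross for Csta1, which did not pass the filter), in the order of the genes on chromosome 16 and not to distance. Parp14, Dtx3l and Parp9 lie between 0.95 and 1.14, while the nearest named protein-coding neighbours, Hspbap1 and Kpna1, lie at 0.30 and 0.27.

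Parp12 and Parp10 add single ADP-ribose units. Parp12, a zinc finger protein known as an interferon-induced inhibitor of RNA virus replication, was at 0.04, 0.05, -0.17 and -0.23 after saline and at 1.13, 1.20, 0.70 and 1.20 after LPS. LPS array 3 stood well below the other LPS arrays but above all saline arrays. The rise was 1.14 ± 0.13 (2.20-fold, adjusted p = 0.000772). In the values reported, Parp12 and Parp9 were the 2 genes that rose at least 2-fold, as 3.58% of all genes did. Which genes reached 2-fold depended on the processing. Scaled to the median of each array, Parp14 (1.16) and Dtx3l (1.16) reached it too. With the other percentile, Parp9 (0.99) and Parp12 (0.98) fell just short. Parp12 still reached it with quantile normalization (1.10) and as the mean of probes (1.14), but Parp9 did not (0.96 and 0.89). Parp10, an enzyme that modifies many proteins and itself, had levels of 4.20, 4.31, 4.08 and 4.11 after saline and 4.98, 5.04, 4.72 and 5.08 after LPS. Its groups were clearly apart, with a rise of 0.78 ± 0.10 (adjusted p = 0.00102).

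The DNA-dependent enzymes Parp1, Parp2 and Parp3 are switched on by DNA breaks. Parp1, the most active builder of ADP-ribose chains, had levels of 1.21, 1.26, 1.25 and 1.0 after saline and 1.93, 1.77, 1.37 and 1.75 after LPS. The rise was 0.53 ± 0.13 (1.44-fold, adjusted p = 0.0109), and LPS array 3 lay only just above the saline arrays. For Parp2, the close relative of Parp1, levels were -0.28, -0.19, -0.16 and -0.30 after saline and 0.29, 0.27, -0.04 and 0.29 after LPS, with the same array lowest. Parp2 rose by 0.43 ± 0.10 (adjusted p = 0.00701). Parp3, which adds single units at double-strand breaks, went from -1.47, -1.63, -1.34 and -1.66 to -0.88, -0.84, -1.0 and -0.68. This rise of 0.68 ± 0.10 (adjusted p = 0.00159) was the largest of these 3 enzymes on their brightest probes. As means of probes Parp3 rose by 0.52 and Parp1 by 0.53. With normexp background correction and an offset of 50 they rose by 0.41 and 0.45. The order of the 3 enzymes was not tested. Parp1 minus Parp2 within an array was 0.09 larger after LPS with overlapping groups (exact p = 0.2000, also after adjustment over the 3 pairs). With a covariate for the median signal of the arrays, Parp1 (0.32, adjusted p = 0.10) and Parp2 (0.33, adjusted p = 0.054) kept their direction but not the call. That signal was 11.7 to 13.8 on LPS arrays 1, 2 and 4 and 15.5 or more on the saline arrays. The covariate therefore overlaps with the treatment and can take up part of its difference.

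Parp8 and Parp11 had the smallest differences. Parp8, an enzyme of little-known function that adds single units, had levels of 1.97, 2.12, 1.98 and 2.00 after saline and 2.56, 2.49, 2.24 and 2.21 after LPS on its brightest probe. Every LPS array exceeded every saline array, and the rise was 0.36 ± 0.10 (1.28-fold, adjusted p = 0.0181). It was not called with quantile normalization (0.20), with the 75th percentile over detected probes (0.20), with median signal as a covariate (0.22) or without LPS array 2 (0.32, adjusted p = 0.0551). Parp11, a nuclear enzyme that adds single units, was at -0.80, -0.79, -0.81 and -0.87 after saline and at -0.53, -0.63, -0.87 and -0.48 after LPS. LPS arrays 1, 2 and 4 of this gene lay above all saline arrays, but LPS array 3 did not. The difference was 0.19 ± 0.10 with a 95% interval of -0.03 to 0.41 (adjusted p = 0.13), which includes zero. Without LPS array 3 it was 0.27 with adjusted p = 0.0118, and array weights gave 0.24 with adjusted p = 0.0124.

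**Figure D3:**
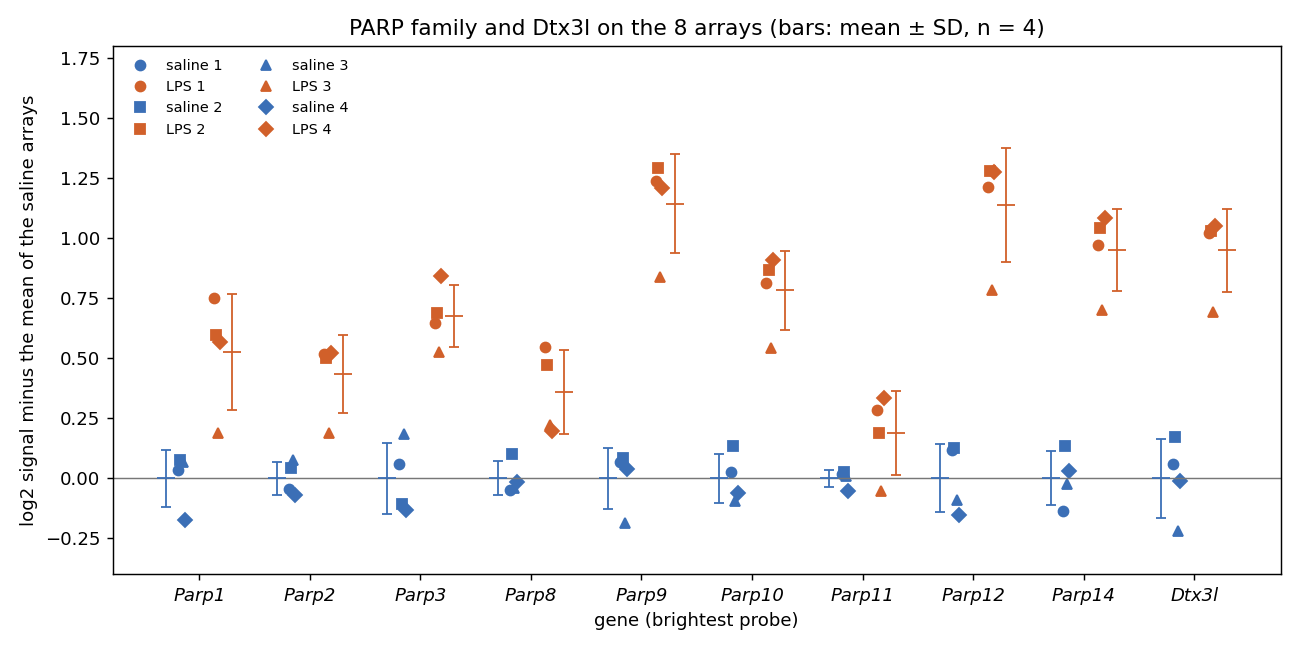
Scaled log2 signal of each of the 10 genes on each array, drawn minus the mean of the 4 saline arrays; points are arrays (colour the treatment, shape the array number) and bars the mean ± SD of each group, n = 4. For 9 genes all LPS points lie above the saline points, for Parp11 the groups overlap, and LPS array 3 (triangle) is lowest of its group for all but Parp8.

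LPS array 3 was the lowest of the LPS arrays for 9 of the 10 genes, Parp8 being the exception, whose lowest was LPS array 4. Averaged over the 10 genes, the excess over the saline mean was 0.80, 0.79, 0.46 and 0.80 on LPS arrays 1 to 4. The same array had the smallest mean excess for 10 cell cycle genes (0.61, against 0.92 to 1.19 on the other LPS arrays) and for 12 interferon signalling genes (0.62, against 0.86 to 0.97). It also differed in signal as a whole. Its median processed signal was 17.3, against 11.7 to 13.8 on the other LPS arrays and 15.5 to 21.5 on the saline arrays. Its share of probes well above background was 63.2%, against 58.6% to 60.7% and 61.9% to 66.0%. The part of this in the smaller excess was not tested. Without LPS array 3, all 10 genes were called higher, and 13263 genes in all in place of 11105. The arrays of each group were spread over 2 rows of the slide, and all 10 genes were higher after LPS within both rows. In row 1 and row 2 the changes were 1.31 and 0.98 for Parp9, 1.14 and 0.76 for Parp14, 1.12 and 0.78 for Dtx3l, and 0.53 and 0.52 for Parp1. Within the 4 slide columns, each holding 1 array per group, 9 of 10 genes were higher in every column, Parp11 being at -0.06 in column 3.

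Most genes were covered by several probes, and these did not always move together. Of the 23 probes 22 passed the filter, and in a fit over all probes 17 rose, 1 fell and 4 were not called, where 25.7% of all probes were higher and 21.8% lower. All tested probes rose for 7 genes: Parp1 (1 probe), Parp2, Parp3, Parp10, Parp12 (1 tested), Parp14 and Dtx3l. The second probe of Dtx3l rose by 1.0 and that of Parp14 by 0.94, close to their brightest probes. That of Parp2 rose by 0.40 and that of Parp10 by 0.92. The other probes of Parp3 rose by 0.39 and 0.50, less than its brightest. For Parp11 the second probe differed by 0.32 and was not called. The second probe of Parp12 was well above background on 1 saline array and on no LPS array, and was not tested. For Parp9, a second probe to the same transcript as the brightest rose by 1.54 ± 0.25 and a probe to another transcript by 0.70 ± 0.12. The last Parp9 probe, to a further transcript, differed by 0.20 ± 0.15 and was not called (adjusted p = 0.30).

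Parp8 was the one gene with probes called in opposite directions. Its brightest probe (chr13:117643922-117643981 in mm9) rose, as given above. A probe named for another transcript, at chr13:117809924-117809983, fell by 0.67 ± 0.15 (adjusted p = 0.00879), from a mean of -1.29 to -1.96 with no overlap of the groups. That fall was not called with median signal as a covariate or in row 1 alone. The remaining probe, to the same transcript as the brightest and at chr13:117640331-117640390, differed by -0.09 ± 0.17 (adjusted p = 0.69). As the mean of its probes, Parp8 differed by -0.13 (adjusted p = 0.38). Which transcripts the cells made was not tested, and the direction given for Parp8 is that of 1 probe.

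Of 7 further genes of the PARP family, 1 rose, 2 fell and 4 were not called, beside 27.8% of all genes higher and 21.5% lower. Zc3hav1, the zinc finger antiviral protein, rose by 0.49 ± 0.11, and stayed called at 0.22 as the mean of its probes, 0.25 with median signal as a covariate and 0.29 with quantile normalization. Tiparp, a target of the aryl hydrocarbon receptor, fell by 0.33 ± 0.08, and Parp16, an enzyme of the endoplasmic reticulum, fell by 0.38 ± 0.10. Parp4, Parp6, Tnks and Tnks2 were not called, and the median change of the list was -0.10. Both falls lost their call with scaling to the median of each array (Tiparp -0.12, Parp16 -0.17), where the median of the 7 was 0.12. The other percentile called 5 of the 7 lower and 1 higher. It called 12094 of all genes, 40.1% of them as higher and the rest as lower. Without saline array 4 (-0.36) or LPS array 4 (-0.33) Parp16 was not called, and quantile normalization (-0.29) did not call it either.

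Removal of ADP-ribose is the work of hydrolases such as Parg and the macrodomain proteins. Of 9 such genes, 2 rose and 7 were not called, beside 27.8% of all genes higher, with a median change of -0.01. Adprh, which frees arginine from ADP-ribose, rose by 0.36 ± 0.11 and Oard1, which clears it from acidic residues, by 0.31 ± 0.11. Neither was called when any one of LPS arrays 1, 2 and 4 or saline arrays 3 and 4 was left out, nor with quantile normalization. Without saline array 2, 1 of them was called. Parg itself, picked as an example after its values were seen, differed by 0.03 ± 0.07 and was not called.

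Of 11 genes that act with Parp1 at DNA breaks or read its product, 8 rose (27.8% of all genes did), 1 fell and 2 were not called, with a median change of 0.45. H2afy, which encodes macroH2A1, a histone variant with a macrodomain, rose by 0.76 ± 0.12. Aplf, a repair scaffold that binds ADP-ribose chains, rose by 0.69 ± 0.11, and Hpf1, which directs Parp1 and Parp2 to serine, by 0.64 ± 0.13. Rnf146, a ubiquitin ligase that recognises ADP-ribose chains, fell by 0.25 ± 0.07, a call lost with scaling to the median (-0.040) and without LPS array 2. All 10 cell cycle genes rose beside them, with a median of 0.99, among them the replication helicase subunit Mcm5 (1.19 ± 0.17), the thymidylate synthase Tyms (1.10 ± 0.16) and the topoisomerase Top2a (1.05 ± 0.12). Whether the repair genes, Parp1 and Parp2 moved with cell division was not tested.

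Of the 4 other Deltex ligases, Dtx2 rose (0.49 ± 0.10), Dtx3 fell by 0.77 ± 0.16, and Dtx1 and Dtx4 were not called. Over all genes 27.8% were higher and 21.5% lower. Without LPS array 3, or without saline array 2, 2 of the 4 were called lower, where 13263 and 10051 of all genes were called in either direction. Interferon signalling genes, which lie upstream of many of these genes in macrophages, had 7 of 12 members higher and 5 not called. Beside them 27.8% of all genes were higher. The median change of the 12 was 0.45. The transcription factor Irf7 rose by 3.60 ± 0.18 and Stat2, a subunit of the factor that interferon receptors switch on, by 1.05 ± 0.14. Without LPS array 3, 11 of the 12 were called higher. With quantile normalization 6 were higher and 2 lower, where 11281 of all genes were called, 50.4% of them as higher.

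NAD is the substrate of the whole family. Of 18 genes that make, convert or consume it, 17 passed the filter (Ido1 did not). Of these, 6 rose, 3 fell and 8 were not called, beside 27.8% of all genes higher and 21.5% lower. Their median change was 0.22. Bst1 (2.20 ± 0.18) and Cd38 (1.24 ± 0.15), both surface enzymes that cleave NAD, rose most, followed by Nadk, which phosphorylates NAD (1.03 ± 0.13). The NAD-making enzyme Nmnat2, typical of neurons, fell by 1.29 ± 0.31, but by 0.58 and without a call when median signal was a covariate. With normexp background correction and an offset of 50 it fell by 0.46. Nnmt, which methylates nicotinamide, fell by 1.08 ± 0.22, from a dim mean of -3.12 to -4.20. With that offset its fall was 0.13 and not called. With normexp and no offset, 3 of the 17 genes were lower, the same number as in the values reported. Nmrk1, a nicotinamide riboside kinase, fell by 0.53 ± 0.11, a call lost with scaling to the median (-0.31). With the other percentile 6 of the 17 were lower and 5 higher. At that setting 12094 of all genes were called, 40.1% of them as higher and the rest as lower.

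**Figure D4:**
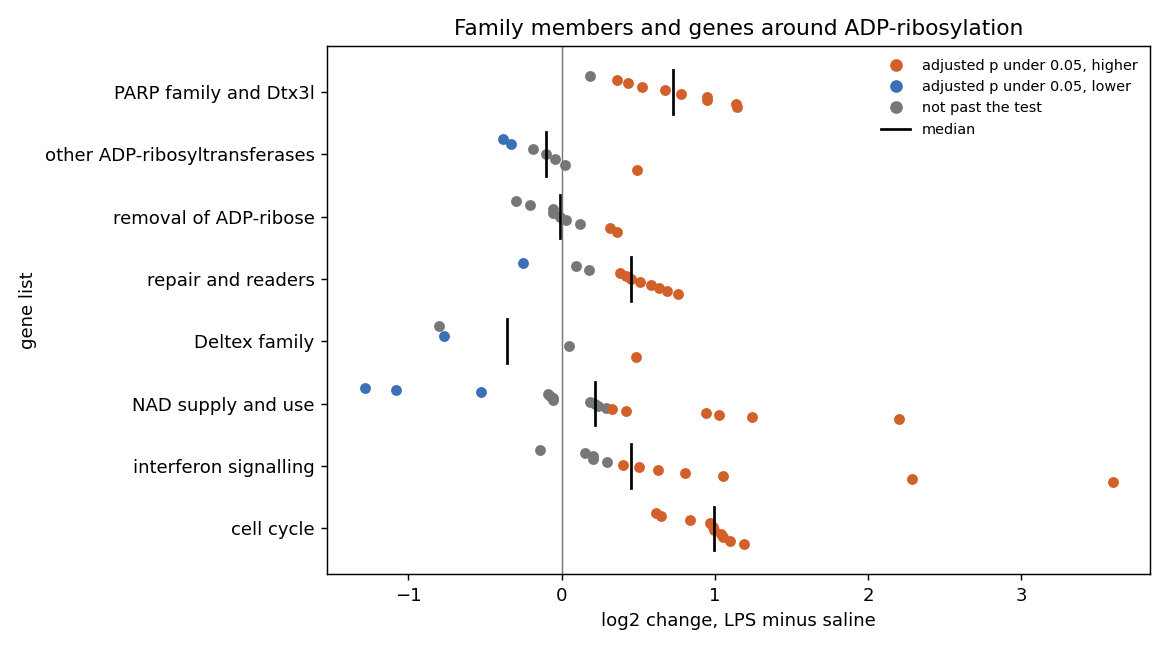
Change after LPS (log2, LPS minus saline) of the 10 genes and of the genes in each related list, 1 point per gene, coloured by call, with the median of each list drawn as a bar. The 10 genes have a median of 0.73, between those of the repair list (0.45) and the cell cycle list (0.99), and the removal list lies around zero (-0.01).

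The genes whose levels followed Parp9 most closely over the 8 arrays were named by Pearson correlation among all 22509 other genes tested, as a description. They were Eif2ak2, the antiviral kinase PKR, Treml2, a receptor of myeloid cells, Susd6, and a pair of transcripts named only by position, all with r of 0.998 or 0.999. Dtx3l was at rank 65 with r of 0.995, Parp10 at rank 275 and Parp14 at rank 1079, while the median over all genes was 0.15. Nearest to Parp14 were Klra9, a receptor of the Ly49 family, Ifi204, an interferon-inducible DNA sensor, Chit1, a chitinase of macrophages, and 2 transcripts without a gene symbol. Nearest to Parp1 were Ipo7, a nuclear import receptor, Det1, a ubiquitin ligase component, Oip5, a centromere protein, and 2 probes without a symbol (r of 0.994 to 0.996), while Parp2 was at rank 171 with r of 0.974. All of these points share the split of the arrays into saline and LPS.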

How the data were processed

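Gene expression was measured on 1-colour Agilent arrays, 4 per group. Total RNA (50 ng a tube, per the labels) was made into Cy3-labelled cRNA. The spots were read with Agilent Feature Extraction 12.0.3.1, per the submitters' processing notes and the headers of the files. The deposited files hold spot intensity, with background removed by spatial detrending and no scaling from array to array per the file headers. The authors also deposited a table of log2 values. After centring each probe these correlated at 0.9992 or more with the scanner values, and their column medians were -0.07 to 0.08. How that table was normalized is not stated in the labels or headers, and it served as an alternative.

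Control and outlier spots were left out. No spot was saturated. Values were log2 processed signal minus the array's 75th percentile. A probe had to be well above background on 4 or more of the 8 arrays, and a gene was its brightest such probe. limma 3.58.1 (lmFit, eBayes; R 4.3.3), with Benjamini-Hochberg adjustment at 0.05, was fitted over 22510 genes, and over 35495 probes, and checked on simulated data. Names came from RefSeq accessions (35402 probes), symbols (9123) or synonyms (25) in a table of assembly GRCm38.p6, otherwise from the files (12049). Probe coordinates are those of the files (mm9). Every gene of the set is described with all its probes, each related list by its counts and up to 3 examples per direction (the largest changes past the threshold), and the 5 genes most correlated with each of Parp9, Parp14 and Parp1. The values of 1 example are not reported here. The genes and lists were chosen with earlier results of these data known. Alternatives covered scaling, background correction, filter, probe choice, variance model, slide position, the values the authors deposited, and the removal of single arrays.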

Additional observations from a re-analysis of the deposited data

Results flagged for a closer look

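For 10 of 104 groups of 4 arrays examined (each probe or gene named, in each treatment, and the pairs), 1 array stood farther from the other 3, relative to the range of the group, than Dixon's limit at 95% allows. Chance alone gives about 1 in 20. In 6 of the 10 the array was LPS array 3, the lowest of its group each time. There the level of Parp2 was -0.042 (others 0.27 to 0.29), of Parp12 0.70 (others 1.13 to 1.20), of the brightest Dtx3l probe 2.49 (others 2.82 to 2.85) and of the second Dtx3l probe -1.54 (others -1.23 to -1.19). On the same array Dtx2 stood at 3.39 (others 3.67 to 3.72) and Nadk at 4.57 (others 5.0 to 5.08).

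Saline array 3 was low for the brightest Parp9 probe (1.88, others 2.11 to 2.15) and for Bst1 (-0.70, others -0.31 to -0.29). LPS array 2 was high for the Parp8 probe that was not called (-1.56, others -2.16 to -2.08), and saline array 1 was high for Pdia5 (-0.28, others -0.53 to -0.50).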

How the results depend on the processing

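Of 250 values of the 10 genes in 25 alternative settings, 230 kept direction and call, 17 lost the call, 2 gained one and 1, Parp8 as the mean of its probes (-0.13), reversed. Leaving out 1 array at a time gave 8 to 10 genes higher and 0 lower, 8731 to 13263 genes called in all, 16 to 18 probes higher and 1 lower. The pair differences then ran from 0.17 to 0.21 (Parp9 minus Dtx3l), 0.14 to 0.26 (Parp9 minus Parp14) and 0.05 to 0.12 (Parp1 minus Parp2). Without saline array 1 the first 2 were 0.20 and 0.26, both with adjusted p = 0.0429, and as means of probes they reversed to -0.079 and -0.048 (adjusted p = 0.5429). Slide row 1 alone gave 5604 genes called and 11 probes higher, with 0 lower. Row 2 alone, also 2 arrays against 2, gave 5 genes called, none of the 10 genes (0) and 0 probes in either direction. The covariate of median signal, which overlaps with the treatment, left 6 of the 10 genes higher and 0 probes lower. Testing every probe on its own called 16857. No paired analysis by replicate number was possible because the labels carry none; with slide column as a block (1 array of each group a column), 9 of the 10 genes were higher and 13621 genes called. Arrays, 4 per group, limit the precision.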
